A study of Homo sapiens with 12 samples.

Results

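HLE, a cell line from a human hepatocellular carcinoma, was the source of all RNA. The 10 genes followed here are the CXC chemokines *CXCL1*, *CXCL2*, *CXCL3*, *CXCL5* and *CXCL8*, the CC chemokine *CCL2*, and the cytokines *IL6*, *IL1A*, *IL1B* and *LIF*. They were chosen by name out of the 26258 genes of the deposited table because *CXCL5* fell strongly after depletion of YAP and TAZ, so their siY/T against siCtrl values in DMSO are given as a description without a test. All 10 are in the table, and 7 of them reached at least 1 CPM (reads per 1000000 reads on genes) in at least 2 libraries and were tested with 13515 genes. Cells received one of 3 siRNA treatments: the control siRNA (siCtrl), siRNAs that target YAP together with TAZ (siY/T), or siRNA to ATF4 (siATF4). Under each siRNA, DMSO as vehicle was set against 5 µM of the kinase inhibitor Sorafenib (Srf), which gives 6 groups of 2 libraries and 12 libraries in all. The study's text and the labels differ on the Sorafenib dose and on the number of replicates, and the labels are followed here. The labels give no time of treatment, and they do not say whether the 2 libraries of a group came from separate transfections, so p-values measure only the spread between these libraries. HLE is 1 cell line, siY/T removes both factors at once, and the siRNA effects are partial.

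The CXC chemokines studied here bind the receptors CXCR1 and CXCR2 and attract neutrophils, and CCL2 attracts monocytes through CCR2. IL6 and LIF signal through receptors that share the gp130 chain encoded by *IL6ST*, and activate JAK kinases and STAT3. IL1A and IL1B are the classical upstream inflammatory cytokines of epithelial and myeloid cells. Most of these genes carry NF-κB binding sites in their promoters and are induced when the NF-κB subunits (*RELA*, *RELB*, *REL*, *NFKB1*, *NFKB2*) are released from their inhibitors. YAP and TAZ are co-activators that act mainly through TEAD factors, and ATF4 is the transcription factor of the integrated stress response.

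Depth was even, with 41408348 to 53619732 reads on genes per library, so that 1 read stood for 0.0187 to 0.0242 CPM. Libraries of a group differed with an SD of 0.110 to 0.190 on the log2 scale over all tested genes, highest in siY/T DMSO. The targeted mRNAs were lower in the libraries labelled for them: *YAP1* averaged 278 CPM in siCtrl DMSO and 52.1 CPM in siY/T DMSO cells, *WWTR1* (TAZ) averaged 171 and 61.0 CPM, and *ATF4* averaged 248 CPM in siCtrl DMSO and 98.5 CPM in siATF4 DMSO cells. *WWTR1* also averaged 106 CPM in siATF4 DMSO cells. Of the liver markers, *ALB* reached at most 0.0214 CPM, *APOB* had no read, and 2 of 10 hepatocyte markers were tested, the main one being *FGB* at 64.4 to 431 CPM. *KRT8*, *KRT18* and *VIM* were abundant. The summed level of 5 epithelial markers (*KRT8*, *KRT18*, *KRT19*, *EPCAM* and *CDH1*) lay at 3223 to 3333 CPM in siCtrl DMSO and at 978 to 1025 CPM in siY/T DMSO cells. Nearly all of this sum was *KRT8* and *KRT18*. *CDH1* went the other way, from 0.653 and 0.954 CPM in siCtrl DMSO to 1.89 and 2.39 CPM in siY/T DMSO cells. *KRT19* and *EPCAM* reached at most 0.513 and 0.701 CPM in any library. Of 8 leukocyte and macrophage markers 1 was tested, *CD68*, a lysosomal protein gene. The sum of this list was 20.6 to 21.9 CPM in siCtrl DMSO and 73.4 to 76.0 CPM in siATF4 DMSO cells, while *CD3E* had no read and *PTPRC* had reads in 1 library. The 4 endothelial markers together stayed at or below 0.364 CPM. In a culture, fewer cells that make a cytokine and less mRNA per cell cannot be told apart.

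*CXCL5* lies within a cluster of CXC genes on chromosome 4. On GRCh37 the order is *CXCL8* (74606236 to 74609433, plus strand), *CXCL6*, *PF4V1*, *CXCL1* (74735110 to 74737025, plus), *PF4*, *PPBP*, *CXCL5* (74861359 to 74864394, minus), *CXCL3* (74902306 to 74904524, minus) and *CXCL2* (74962757 to 74964913, minus). *IL6* is on chromosome 7 (22765503 to 22771621, plus), *IL1A* and *IL1B* are on chromosome 2, *LIF* is on chromosome 22 (30636442 to 30642748, minus) and *CCL2* is on chromosome 17 (32582293 to 32584227, plus). RefSeq promoters (table of GRCh38.p14) were given for 8 of the 10 genes. In the 250 bases before the start site the NF-κB motif GGANTTTCC, read on both strands, was present in *CXCL1*, *CXCL2*, *CXCL3*, *CXCL5*, *CXCL8*, *IL6* and the neighbour *CXCL6*. The same letters were found in 1.45% of 35116 promoters of equal length. The motif was searched with the results of these genes known. The stretches from 120 to 56 bases before the start are shown so that the motif, in capitals, can be compared between the 6 members that hold it and *CXCL6*. All distances are from the start site of the RefSeq promoter, not from the ends of the gene spans given above, which are from GENCODE. The 2 differ for some genes, and in *IL6*, *CXCL2*, *CXCL3* and *CXCL8* the RefSeq start lies inside the printed span. Each stretch matched its GRCh37 chromosome once, at chr4:74734990-74735054 (*CXCL1*), chr4:74964968-74965032 (*CXCL2*), chr4:74904462-74904526 (*CXCL3*), chr4:74864450-74864514 (*CXCL5*), chr4:74702275-74702339 (*CXCL6*), chr4:74606166-74606230 (*CXCL8*) and chr7:22766699-22766763 (*IL6*), and each is written in the direction of its gene.
CXCL1: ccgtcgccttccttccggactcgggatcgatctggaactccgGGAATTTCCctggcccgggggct
CXCL2: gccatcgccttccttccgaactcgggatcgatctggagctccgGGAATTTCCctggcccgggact
CXCL3: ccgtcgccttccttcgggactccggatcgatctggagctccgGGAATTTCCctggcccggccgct
CXCL5: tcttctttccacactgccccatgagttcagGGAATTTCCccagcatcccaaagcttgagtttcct
CXCL6: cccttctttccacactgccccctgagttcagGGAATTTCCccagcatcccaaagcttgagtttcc
CXCL8: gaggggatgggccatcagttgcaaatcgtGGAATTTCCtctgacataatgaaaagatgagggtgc
IL6: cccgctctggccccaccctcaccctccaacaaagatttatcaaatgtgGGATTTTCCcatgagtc

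The first base of the motif was 78 bases before the start in *CXCL1* and *CXCL3*, 77 in *CXCL2*, 90 in *CXCL5*, 89 in *CXCL6*, 91 in *CXCL8* and 72 in *IL6*. Of these 7, 6 hold GGAATTTCC and *IL6* holds GGATTTTCC. The AP-1 letters TGANTCA (6.57% of promoters) were found in *CXCL8* and in both *IL1A* promoters. The TEAD letters GGAATG (11.9% of promoters) and the C/EBP-ATF letters TGATGNAA (3.14%) were found in none of the member promoters given, in these 250 bases.

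*CXCL5* encodes a chemokine that draws neutrophils. In DMSO the 2 siCtrl libraries held its mRNA at 16.2 and 13.6 CPM, the siY/T libraries at 1.68 and 1.79 CPM and the siATF4 libraries at 22.1 and 19.8 CPM. With Sorafenib siCtrl gave 4.56 and 5.09 CPM, siY/T 1.41 and 1.22 CPM, and siATF4 6.88 and 7.58 CPM. The order of the group means ran from siATF4 DMSO over siCtrl DMSO, siATF4 Srf, siCtrl Srf and siY/T DMSO down to siY/T Srf, and no adjacent groups overlapped. *CXCL5* mRNA was thus low in all 4 siY/T libraries, whether or not Sorafenib was present, and it was lower with Sorafenib than with DMSO under every siRNA. It was also the CXC gene with the highest level per length: in siCtrl DMSO cells it averaged 6.12 CPM per kb of annotated exon, against 1.69 for *CXCL2*, 0.300 for *CXCL1*, 0.281 for *CXCL3* and 0.0194 for *CXCL8*.

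*CXCL2*, the member of this family next in level, followed the same order of groups as *CXCL5*. In DMSO its values were 2.16 and 2.55 CPM for siCtrl, 0.449 and 0.386 CPM for siY/T, and 10.6 and 11.1 CPM for siATF4. In Sorafenib the values were 0.665 and 1.22 CPM for siCtrl, 0.300 and 0.304 CPM for siY/T, and 1.74 and 2.33 CPM for siATF4. The siATF4 DMSO libraries stood far above all others, and only siCtrl DMSO and siATF4 Srf overlapped among adjacent groups.

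*CXCL1* and *CXCL3*, close relatives of *CXCL2*, were near the limit of detection outside the siATF4 groups. For *CXCL3* the DMSO libraries gave 0.671 and 0.577 CPM with siCtrl, 0.176 and 0.241 CPM with siY/T, and 3.43 and 2.83 CPM with siATF4, and the Sorafenib libraries gave 0.282 and 0.529, 0.150 and 0.281, and 0.929 and 1.37 CPM in the same order. For *CXCL1* they gave 0.485 and 0.333 CPM (41 reads together) with siCtrl, 0.0585 and 0.169 CPM (10 reads) with siY/T, and 1.86 and 1.49 CPM (162 reads) with siATF4 in DMSO. In Sorafenib *CXCL1* stood at 0.282 and 0.346 CPM (31 reads) with siCtrl, 0.0856 and 0.0234 CPM (5 reads) with siY/T, and 0.474 and 0.556 CPM (51 reads) with siATF4. Both genes reached the filter of 1 CPM only through siATF4 libraries, so that a difference of these groups from the others was built into their being tested. For *CXCL3* only the siY/T groups overlapped each other among adjacent groups. For *CXCL1* siATF4 Srf overlapped siCtrl DMSO, siCtrl DMSO overlapped siCtrl Srf, and both siY/T groups overlapped. Windows of 75 bases, the cycles of the sequencing kit, were shared with another gene's transcripts for 7.56% of *CXCL2*, 4.57% of *CXCL3* and 0.233% of *CXCL1*, so a part of the reads of *CXCL2* and *CXCL3* could not be placed uniquely.

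*CXCL8*, the best known of these chemokines, was close to absent with 46 reads over 12 libraries. Its 2 libraries had 3 and 2 reads in siCtrl DMSO, 3 and 1 in siY/T DMSO, 11 and 14 in siATF4 DMSO, 2 and 0 in siCtrl Srf, 0 and 1 in siY/T Srf, and 6 and 3 in siATF4 Srf cells. Pooled over the libraries and corrected for depth, siATF4 DMSO held 5.08 times the reads of siCtrl DMSO (95% exact interval 1.91 to 17.0, counting error only). For siY/T DMSO against siCtrl DMSO the ratio was 0.852 with an interval of 0.169 to 3.96, so a change was not detectable at this depth. *CXCL6*, the neighbour whose promoter stretch resembles that of *CXCL5*, was not tested, at 0.261 and 0.222 CPM with siCtrl, 0.0390 and 0.0483 CPM with siY/T, and 0.150 and 0.0792 CPM with siATF4 in DMSO.

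*IL6* lay above *CXCL1* in mean CPM in all 6 groups, and below *CXCL2* in siCtrl DMSO and in both siATF4 groups. DMSO-treated cells had 1.32 and 1.46 CPM with siCtrl, 0.429 and 0.459 CPM with siY/T, and 2.85 and 2.57 CPM with siATF4. Sorafenib-treated cells had 0.806 and 1.20 CPM with siCtrl, 0.364 and 0.304 CPM with siY/T, and 1.19 and 1.46 CPM with siATF4. All 4 siY/T libraries were below every other library, and siATF4 Srf overlapped both siCtrl DMSO and siCtrl Srf. *IL1A* had no read in any library; 3 counts over all libraries, the limit that a count of 0 allows, correspond to 0.00521 CPM. *IL1B* had 6 reads in 3 libraries, 2 in siCtrl Srf replicate 2 and 1 and 3 in siY/T Srf. Neither interleukin 1 gene can be compared between groups.

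*LIF*, a cytokine that keeps mouse embryonic stem cells undifferentiated, was not lower after siY/T in DMSO, unlike *IL6*. In DMSO *LIF* mRNA was at 12.8 and 11.8 CPM with siCtrl, 14.1 and 13.4 CPM with siY/T, and 42.9 and 37.2 CPM with siATF4. Under Sorafenib it was at 7.40 and 7.79 CPM with siCtrl, 5.99 and 5.26 CPM with siY/T, and 15.0 and 14.9 CPM with siATF4. No adjacent groups overlapped, and the siY/T libraries were above siCtrl in DMSO and below siCtrl in Sorafenib.

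*CCL2* was by far the most abundant member, at 95.6 CPM per kb of exon in siCtrl DMSO cells against 6.12 for *CXCL5* and 3.18 for *LIF*. The DMSO libraries held 187 and 183 CPM with siCtrl, 111 and 94.0 CPM with siY/T, and 111 and 117 CPM with siATF4. The Sorafenib libraries held 70.3 and 69.8 CPM with siCtrl, 78.4 and 80.7 CPM with siY/T, and 68.6 and 65.8 CPM with siATF4. *CCL2* was highest in siCtrl DMSO and lower in all 5 other groups, the only member of which this was true. The siATF4 DMSO and siY/T DMSO libraries overlapped.

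**Figure D1:**
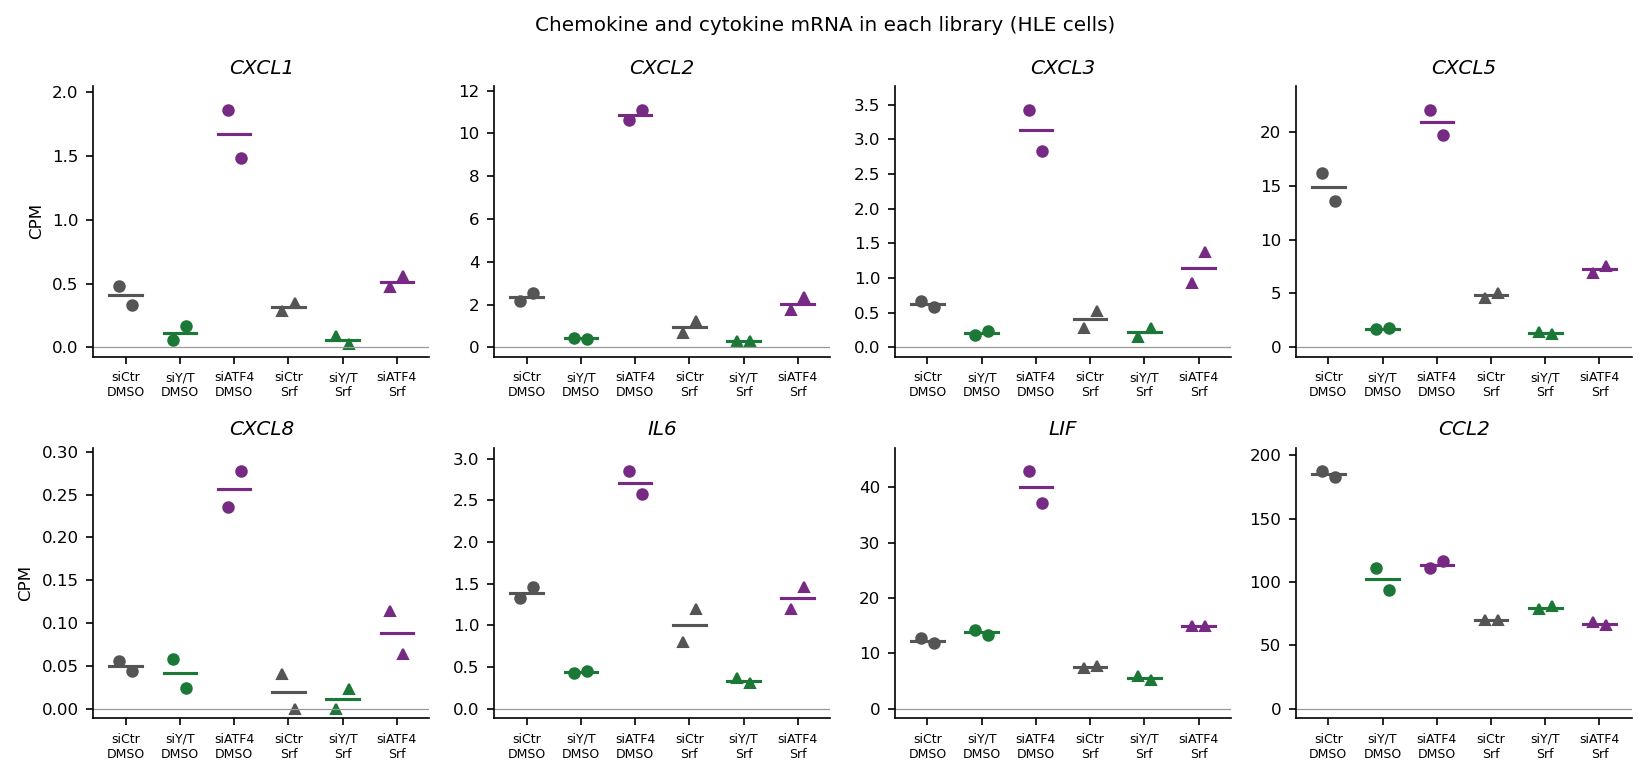
CPM of 8 member genes (linear axes, 1 panel per gene) in the 6 groups, with 1 symbol per library (circles, DMSO; triangles, Srf) and a bar at the mean of the 2 libraries. *CXCL5* is at 1.22 to 1.79 CPM in the 4 siY/T libraries, all 5 CXC genes, *IL6* and *LIF* are highest in siATF4 DMSO, and *CCL2* is highest in siCtrl DMSO at 183 and 187 CPM.

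The first comparison asked which of these genes depend on YAP/TAZ. All log2 fold changes below are on the log2(CPM + 0.5) scale, ± SE from limma, which understates the change of genes near 0.5 CPM. A gene was called where its unadjusted P was under 0.05 and its log2 change 0.58 or more in size, and the p-values printed are Benjamini-Hochberg adjusted over 13515 genes. In DMSO, siY/T cells had less *CXCL5* (-2.78 ± 0.11; mean CPM 8.60-fold lower), *CXCL2* (-1.64 ± 0.17; 5.65-fold lower), *IL6* (-1.004 ± 0.14; 3.14-fold lower), *CCL2* (-0.85 ± 0.06; 1.80-fold lower) and *CXCL3* (-0.67 ± 0.18; 2.99-fold lower). These 5 passed the rule for a lower call, as 3.61% of all tested genes did (4.68% with TMM scaling and 5.84% with quantile normalization); nothing is read from this count, since the genes were chosen with this contrast known. *CXCL1* (-0.57 ± 0.15; 3.59-fold lower) fell just short of the fold change asked for and passed it with edgeR on the recovered reads (-1.98), and *LIF* had a value of 0.16 ± 0.08. Without siCtrl DMSO replicate 2 or siY/T DMSO replicate 2 the *CXCL1* value was -0.69 and -0.70.

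Under Sorafenib the same siRNAs were compared in other libraries. The members were chosen with earlier results of these data known, so the p-values here are not independent of that choice. *CXCL5* is given without a test. *CXCL2* (-0.82 ± 0.17, adjusted p = 0.00134 with limma) and *IL6* (-0.84 ± 0.14, adjusted p = 0.000313 with limma) fell, and the *CXCL5* value was -1.55 ± 0.11. Calls for a lower level made up 3.84% of all tested genes. *CXCL1* (-0.56 ± 0.15, adjusted p = 0.00951), *LIF* (-0.40 ± 0.08, adjusted p = 0.00158) and *CXCL3* (-0.33 ± 0.18, adjusted p = 0.133) did not reach the rule in limma, and *CCL2* had a value in the other direction (0.18 ± 0.06, adjusted p = 0.0323). The *CXCL2* call was lost without siCtrl Srf replicate 2 (-0.54), while *CXCL1* passed without siCtrl Srf replicate 1 (-0.61) or siY/T Srf replicate 1 (-0.64) and in edgeR (-2.49, adjusted p = 0.00366).

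The second comparison asked the same of ATF4, and most members had values in the opposite direction. In DMSO, siATF4 cells had more *CXCL2* (2.00 ± 0.17, adjusted p = 2.64e-07 with limma; mean CPM 4.61-fold higher), *LIF* (1.66 ± 0.08, adjusted p = 2.31e-09; 3.25-fold) and *IL6* (0.76 ± 0.14, adjusted p = 0.000337; 1.95-fold). The values of *CXCL3* (1.69 ± 0.18; 5.02-fold) and *CXCL1* (1.26 ± 0.15; 4.10-fold) are a description without a test, since these libraries brought both genes past the filter. *CXCL5* had a value of 0.48 ± 0.11, 1.40-fold higher and under the change asked for. It is given without a test, because its siCtrl DMSO values entered the choice of genes. Without siCtrl DMSO replicate 1 the *CXCL5* value was 0.60, over that change. *CCL2* fell (-0.70 ± 0.06, adjusted p = 5.97e-07 with limma; 1.63-fold lower). Among all tested genes 8.57% were called higher and 14.1% lower in this comparison. *CD68* and the leukocyte list sum rose in these libraries as given above, and their part in these values was not tested.

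In Sorafenib, *LIF* (0.93 ± 0.08, adjusted p = 3.83e-07 with limma) and *CXCL2* (0.83 ± 0.17, adjusted p = 0.000557) rose in siATF4 cells, where 10.3% of all tested genes were called higher. *CXCL3*, tested only through siATF4 libraries, had a value of 0.87 ± 0.18, given without a test. *CXCL5* (0.54 ± 0.11, adjusted p = 0.000464) lay just under the change asked for. *CXCL1* (0.32 ± 0.15, adjusted p = 0.0793), *IL6* (0.29 ± 0.14, adjusted p = 0.0816) and *CCL2* (-0.06 ± 0.06, adjusted p = 0.415) did not pass. *CXCL2* was lost without siCtrl Srf replicate 1 (0.55), and *CXCL5* passed without siCtrl Srf replicate 2 (0.61) or siATF4 Srf replicate 1 (0.60). With quantile normalization *CXCL1* (0.80), *CXCL5* (0.80) and *IL6* (0.70) passed too.

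In control cells 4 of the 7 tested members were called lower with Sorafenib. *CXCL5* had a value of -1.53 ± 0.11 (3.09-fold lower). It is given without a test, because its siCtrl DMSO values entered the choice of genes. *CCL2* fell by 1.39 on the log2 scale (SE 0.06, adjusted p = 5.11e-09 with limma, 2.64-fold lower). *CXCL2* fell by 1.01 (SE 0.17, adjusted p = 0.000167, 2.50-fold lower) and *LIF* by 0.66 (SE 0.08, adjusted p = 1.83e-05, 1.62-fold lower). Of all tested genes 5.15% were called lower. *IL6* (-0.34 ± 0.14, adjusted p = 0.0474), *CXCL3* (-0.32 ± 0.18, adjusted p = 0.123) and *CXCL1* (-0.15 ± 0.15, adjusted p = 0.4) did not pass, and *IL6* (-0.68) and *CXCL3* (-0.60) did so with quantile normalization.

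In siATF4 cells Sorafenib lowered *CXCL2*, *CXCL5*, *LIF*, *IL6* and *CCL2*, where 2.95% of all tested genes were called lower. The values ran from -2.17 ± 0.17 for *CXCL2* (adjusted p = 5.21e-07 with limma) over -1.47 ± 0.11 for *CXCL5* (adjusted p = 3.03e-07) and -1.39 ± 0.08 for *LIF* (adjusted p = 6.9e-08) to -0.75 ± 0.06 for *CCL2* (adjusted p = 1.23e-06). *CXCL3* (-1.15 ± 0.18) and *CXCL1* (-1.09 ± 0.15) are given without a test, since the siATF4 DMSO libraries brought them past the filter. In siY/T cells, where 4.14% were called lower, *LIF* was the 1 member called (-1.22 ± 0.08, adjusted p = 1.7e-07 with limma). *CCL2* (-0.36 ± 0.06, adjusted p = 0.000464 with limma) moved less than the change asked for. So did *CXCL5* (-0.30 ± 0.11), given without a test because its siY/T DMSO values entered the choice of genes. *CXCL1*, *CXCL2*, *CXCL3* and *IL6* had values between -0.19 and 0.01. These comparisons share the DMSO or control libraries with those above, so their values for a gene are not independent of each other.

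Whether the siATF4 effect differed between Sorafenib and DMSO was tested directly as an interaction. The siATF4 effect was smaller in Sorafenib for *CXCL2* (-1.16 ± 0.24, adjusted p = 0.00187 with limma) and *LIF* (-0.73 ± 0.12, adjusted p = 0.000426), and *CCL2* differed in the other direction (0.64 ± 0.09, adjusted p = 0.000144). *IL6* had an interaction of -0.47 ± 0.20 (adjusted p = 0.0748 with limma). *CXCL5* had one of 0.06 ± 0.15, given without a test because its siCtrl DMSO values entered the choice of genes. *CXCL1* (-0.94 ± 0.22) and *CXCL3* (-0.82 ± 0.25) are given without a test, as the difference rests on the siATF4 DMSO libraries through which they were tested. Such differences were common, with 41.1% of all tested genes called.

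The same differences for siY/T contain the siY/T values in DMSO that the choice of genes rested on. All of them are therefore given without a test. They were 1.03 ± 0.09 for *CCL2*, -0.56 ± 0.12 for *LIF* and 1.23 ± 0.15 for *CXCL5*, where 22% of all tested genes were called. The value for *CXCL2* (0.82 ± 0.24) was called in limma and not in edgeR. Without siCtrl DMSO replicate 2 it was 0.72, and without siCtrl Srf replicate 1 it was 0.53. Without siY/T Srf replicate 1 or replicate 2 it was 0.82 and 0.81. *IL6* (0.17 ± 0.20), *CXCL3* (0.33 ± 0.25) and *CXCL1* (0.01 ± 0.22) were not called.

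**Figure D2:**
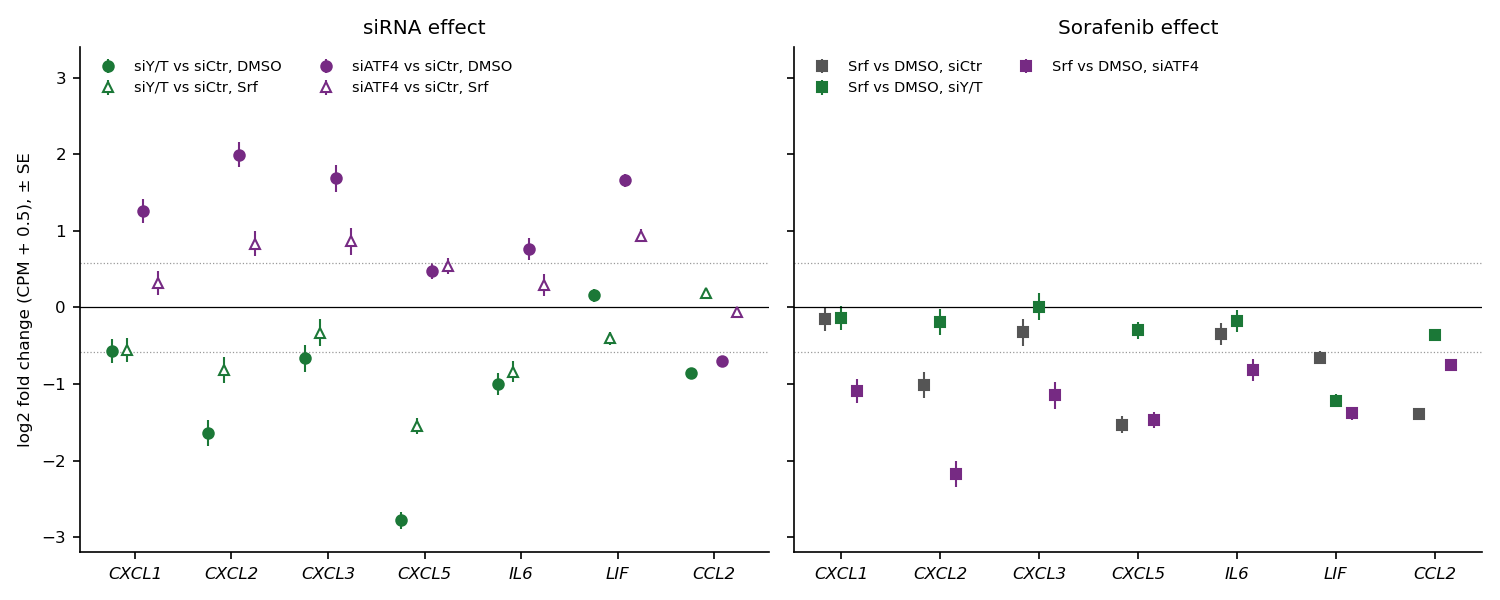
Log2 fold changes of log2(CPM + 0.5) ± SE from limma for the 7 tested members, with the siRNA effects on the left (circles, DMSO; open triangles, Srf) and the Sorafenib effects under each siRNA on the right; dotted lines mark a change of 0.58. *CXCL5* has the lowest siY/T value, -2.78, *CXCL2* the highest siATF4 value, 2.00, and all 7 Sorafenib values in siATF4 cells lie below -0.58.

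*CXCL5* was next compared with its neighbours on the chromosome, to see how far its fall extended. Of 18 neighbouring genes, 7 were tested and 0 of them were called lower or higher after siY/T in DMSO with limma. Their median log2 fold change was -0.24 against 0.07 for all tested genes. Of all tested genes 3.61% were called lower and 11% higher, so 0 of 7 does not show where the fall ended. *CXCL6*, also in this list, was too low to test. In DMSO it was at 0.261 and 0.222 CPM with siCtrl and at 0.0390 and 0.0483 CPM with siY/T. The platelet chemokine genes between *CXCL1* and *CXCL5*, *PF4* and *PPBP*, 16.6 and 10.5 kb from its start, averaged 0.0118 and 0.00185 CPM. *EREG*, an EGF receptor ligand 366 kb away, had -0.36 ± 0.12 (adjusted p = 0.0204 with limma) in DMSO and fell in Sorafenib (-0.67 ± 0.12, adjusted p = 0.000503). Values for the rest in siY/T DMSO cells were 0.06 for *AREG*, 0.44 for *PARM1*, -0.05 for *THAP6*, -0.27 for *RCHY1*, -0.47 for *G3BP2* and -0.24 for *USO1*.

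After siATF4 in DMSO 3 of the 7 neighbours were called higher and 1 lower, against 8.57% and 14.1% of all tested genes. *EREG* rose (1.13 ± 0.12, adjusted p = 2.24e-06 with limma), from 1.53 and 1.49 CPM to 4.03 and 3.74 CPM. One of the 3, *AREG* (1.05), is given without a test, because it reached 1 CPM only in siATF4 libraries, and it is uncertain because GRCh37 holds an identical copy of it. *THAP6* rose (0.81 ± 0.09, adjusted p = 3.1e-06) and *PARM1* fell (-1.43 ± 0.11, adjusted p = 1.71e-07). *THAP6* and *RCHY1*, as well as *G3BP2* and *USO1*, overlap on opposite strands. Like *CXCL5*, *EREG* fell with Sorafenib in siCtrl (-0.64 ± 0.12, adjusted p = 0.000417 with limma) and siATF4 cells (-1.34 ± 0.12, adjusted p = 1.82e-06), and unlike *CXCL5* it was also called lower with Sorafenib in siY/T cells (-0.95 ± 0.12, adjusted p = 2.8e-05).

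**Figure D3:**
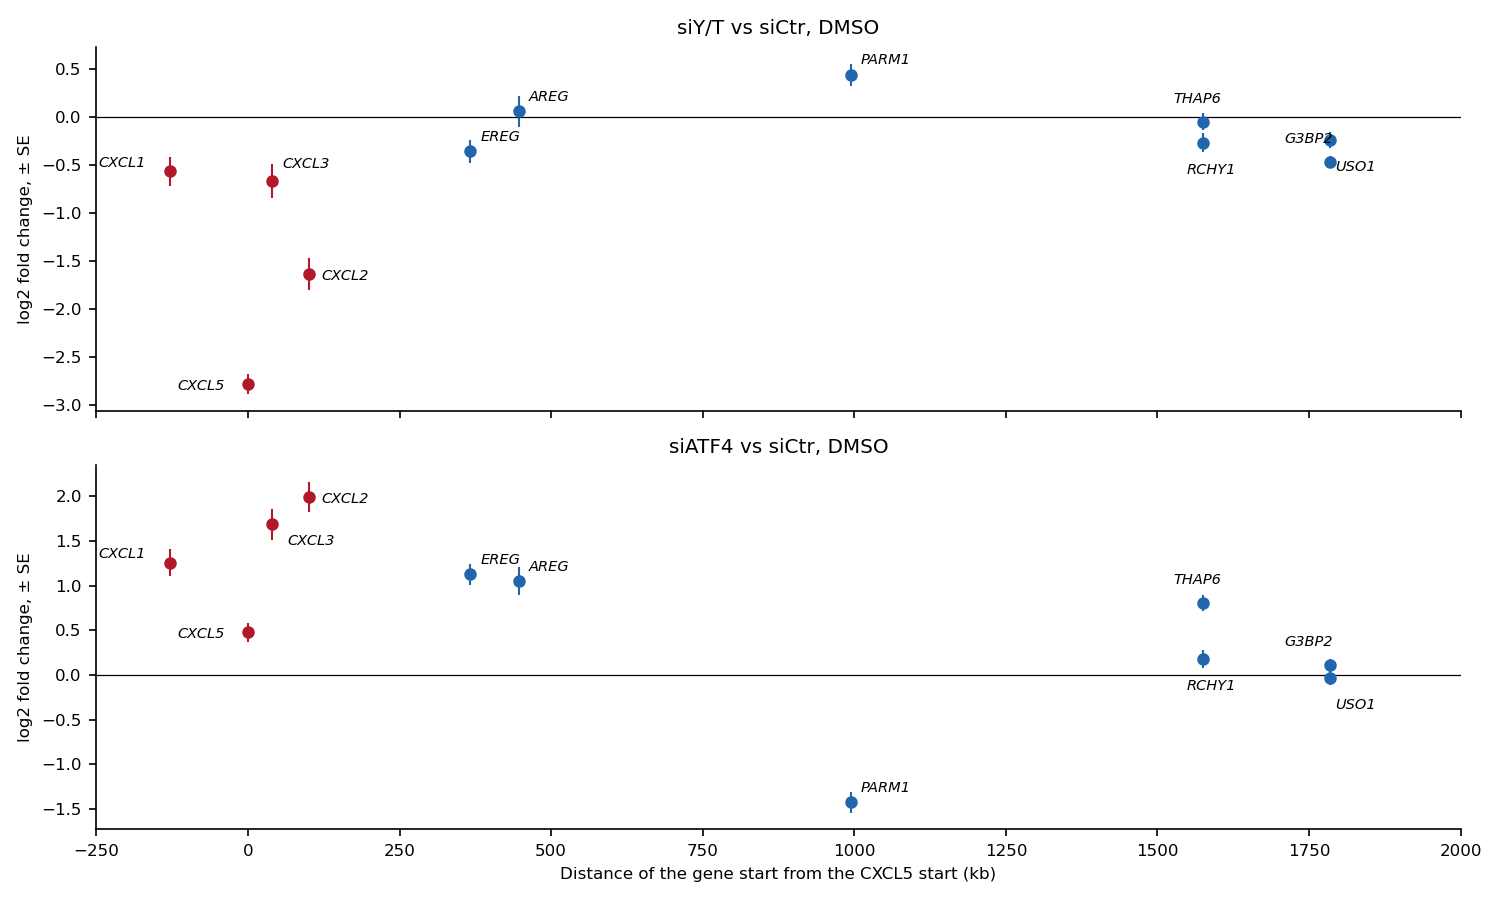
Log2 fold change ± SE of the tested genes around *CXCL5* against the distance of their starts from the *CXCL5* start in kb, for siY/T (top) and siATF4 (bottom) against siCtrl in DMSO; members are red and other genes blue. In the top panel *CXCL5* (-2.78) and *CXCL2* (-1.64) lie lowest and the blue genes lie between -0.47 and 0.44; in the bottom panel *PARM1* is lowest at -1.43.

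Of the 5 NF-κB subunits, 4 rose after siATF4 in DMSO, where 8.57% of all tested genes were called higher, with a median log2 fold change of 0.68 against -0.0013 for all tested genes. *NFKB2*, the precursor of the non-canonical subunit p52, went from 63.5 and 53.2 CPM with siCtrl to 178 and 181 CPM with siATF4 (1.62 ± 0.07, adjusted p = 7.9e-10 with limma). Its partner *RELB* rose from 15.6 and 13.0 CPM to 42.1 and 43.9 CPM (1.56 ± 0.10, adjusted p = 2.63e-08), and *NFKB1* rose by 0.68 ± 0.05 (adjusted p = 2.96e-08). In Sorafenib *NFKB2* (0.82 ± 0.07, adjusted p = 3.21e-07 with limma) and *RELB* (0.78 ± 0.10, adjusted p = 1.36e-05) rose. After siY/T 0 of the 5 subunits were called in limma in either medium, with medians of -0.29 in DMSO and -0.19 in Sorafenib. Of all tested genes 3.61% were called lower and 11% higher in DMSO, and 3.84% and 6.11% in Sorafenib. With such shares 0 of 5 does not show that the subunits were unaffected. *RELB* passed as lower in Sorafenib in some alternatives, such as edgeR.

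Among 12 kinases and adaptors of the pathway, *MAP3K14*, the kinase NIK of the non-canonical arm, fell after siY/T in DMSO (-1.01 ± 0.05, adjusted p = 4.91e-09 with limma), from 77.1 and 72.6 CPM to 37.3 and 36.6 CPM, and in Sorafenib (-0.60 ± 0.05, adjusted p = 4.56e-07). *MYD88*, the adaptor of IL-1 and Toll-like receptors, rose in both (0.60 ± 0.06 and 0.70 ± 0.06). After siATF4 *TRAF6* fell (-0.96 ± 0.09 in DMSO) and *IRAK1* rose (0.65 ± 0.06 in DMSO), and the other 10 were not called. Of 10 inhibitors and feedback genes, *TNFAIP3* (A20) fell after siY/T in DMSO (-0.91 ± 0.14, adjusted p = 9.69e-05 with limma), *NFKBIZ*, an atypical IκB needed for *IL6* induction, rose (0.79 ± 0.11, adjusted p = 2.94e-05), and the other 8 were not called. *NFKBIZ* (1.07 ± 0.11) and *NFKBIA* (0.64 ± 0.07) rose in Sorafenib. After siATF4 in DMSO 2 of the 10 fell and 2 rose: *BCL3* fell (-2.00 ± 0.08, adjusted p = 1.75e-10 with limma), *NFKBIZ* fell (-1.03 ± 0.11) and *NFKBIB* (1.03 ± 0.06) and *TNFAIP3* (0.92 ± 0.14) rose. Of all tested genes 14.1% were called lower and 8.57% higher after siATF4 in DMSO, and 3.61% and 11% after siY/T in DMSO.

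**Figure D4:**
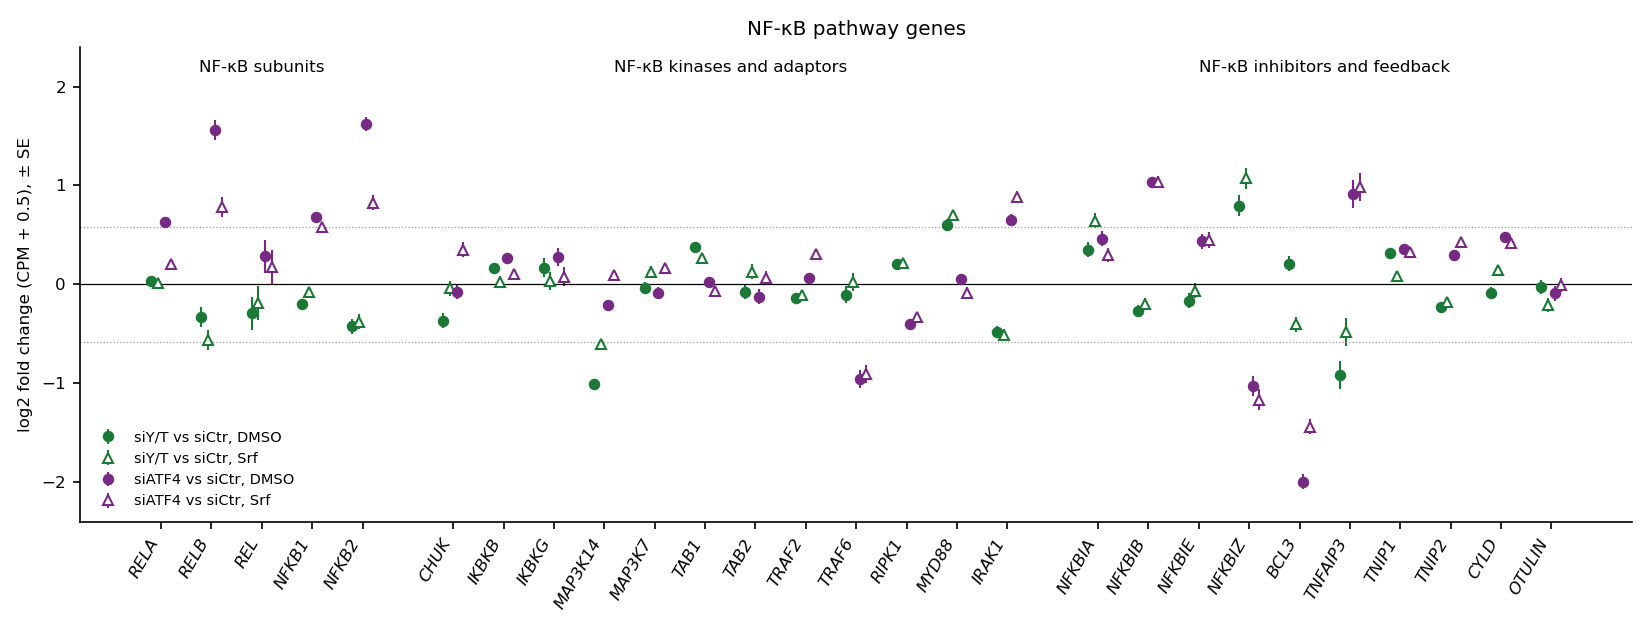
Log2 fold changes of log2(CPM + 0.5) ± SE of the NF-κB subunits, kinases and adaptors, and inhibitors and feedback genes after siY/T (green) and siATF4 (purple) in DMSO (circles) and Srf (open triangles); dotted lines mark a change of 0.58. *NFKB2* (1.62) and *RELB* (1.56) are the highest and *BCL3* (-2.00) the lowest, all after siATF4 in DMSO.

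Other genes known to respond to NF-κB did not move as 1 block. Of 25 such genes 16 were tested. After siY/T in DMSO 2 were called lower and 7 higher (11% of all tested genes were called higher), with a median of 0.05, and with quantile normalization or without siY/T DMSO replicate 1 the higher calls were 4. *BIRC3*, an inhibitor of apoptosis, fell (-1.61 ± 0.10, adjusted p = 2.59e-08 with limma), from 48.6 and 41.6 CPM to 14.1 and 14.6 CPM. *VCAM1*, an adhesion molecule, rose (2.57 ± 0.11, adjusted p = 1.79e-09), from 14.9 and 18.4 CPM to 95.9 and 107 CPM, and *TNFAIP6* rose (1.08 ± 0.14, adjusted p = 1.68e-05). In Sorafenib 4 were called lower, among them *IL11* (-0.69 ± 0.15), and 1 higher, *VCAM1* (2.27 ± 0.11), where 6.11% of all tested genes were called higher.

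After siATF4 in DMSO 10 of these 16 were called higher and 4 lower, with a median of 0.76, against 8.57% and 14.1% of all tested genes. The 10 include *BCL2A1*, which reached 1 CPM only in the siATF4 DMSO libraries, and *CCL5*, which did so only in siY/T DMSO libraries and in 1 siATF4 DMSO library and is also among the 7 called higher after siY/T. *TRAF1* rose (3.83 ± 0.13, adjusted p = 7.91e-11 with limma), from 1.70 and 1.26 CPM to 26.7 and 28.5 CPM. *IL11*, a gp130 cytokine like *IL6* and *LIF*, rose (2.72 ± 0.15, adjusted p = 6.15e-09), from 3.43 and 2.91 CPM to 24.6 and 22.6 CPM, whereas the chemokine gene *CX3CL1* fell (-2.67 ± 0.07, adjusted p = 6.94e-12). In Sorafenib 8 rose, led by *BIRC3* (2.27 ± 0.10), and 4 fell, against 10.3% of all tested genes called higher and 18.7% called lower. With Sorafenib in siCtrl cells *BIRC3* (-0.97 ± 0.10) and *IER3* (-0.89 ± 0.05) fell and *CX3CL1* rose (1.20 ± 0.07). *TNF*, *CSF2* and *CSF3*, further NF-κB cytokines, stayed at or below 0.0407 CPM in all libraries.

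Other factors that bind cytokine promoters changed in both directions. Of 11 tested, 1 was called lower and 4 higher after siY/T in DMSO, against 3.61% and 11% of all tested genes. *EGR1* (2.52 ± 0.12, adjusted p = 5.62e-09 with limma), *CEBPD* (1.72 ± 0.12) and *JUNB* (0.86 ± 0.08) led the rises. In Sorafenib *JUN* (-1.42 ± 0.06, adjusted p = 2.77e-09 with limma) and *FOSL1* (-1.20 ± 0.12) fell after siY/T and *CEBPD* rose (1.42 ± 0.12). Both *JUN* and *FOSL1* were lower after siY/T in DMSO too. There *JUN* went from 224 and 215 CPM to 152 and 141 CPM, and *FOSL1* from 215 and 199 CPM to 141 and 114 CPM. After siATF4 in DMSO *CEBPB*, the factor once named for the IL6 gene, rose (2.24 ± 0.08, adjusted p = 8.33e-11 with limma), from 24.9 and 28.0 CPM to 130 and 123 CPM, *FOSL1* rose (1.39 ± 0.12) and *CEBPD* fell (-1.13 ± 0.12). With Sorafenib in siCtrl cells *FOSL1* fell (-1.30 ± 0.12) and *CEBPB* rose (1.14 ± 0.08). *EGR1*, which reached 1 CPM only in DMSO libraries, had a value of -3.07 ± 0.12 in that comparison, given without a test. Of the 10 regulators of cytokine mRNA decay, *ZFP36L2* rose after siY/T (0.74 ± 0.04 in DMSO and 0.67 ± 0.04 in Sorafenib) and the other 9 were not called.

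Of the receptors for these ligands, *CXCR1*, *CXCR2* and *CCR2* had no read in any library. The decoy receptor genes *ACKR1* and *IL1R2* and the gene of the IL-1 receptor antagonist, *IL1RN*, were at or below 0.0468 CPM. *IL6ST* was abundant at 245 to 416 CPM, and *IL1R1* had 19.7 to 29.0 CPM. *IL6R* went from 29.4 and 29.3 CPM in siCtrl DMSO to 53.2 and 49.8 CPM in siY/T DMSO (0.80 ± 0.05, adjusted p = 3.85e-08 with limma) and 52.5 and 51.1 CPM in siCtrl Srf cells (0.81 ± 0.05, adjusted p = 3.4e-08). *LIFR* fell after siATF4 in DMSO (-0.97 ± 0.10, adjusted p = 2.53e-06), where *LIF* rose, and Sorafenib raised it again in siATF4 cells (0.93 ± 0.10, adjusted p = 1.24e-05). *SOCS3*, the feedback inhibitor of gp130 signalling, rose after siATF4 (1.25 ± 0.08 in DMSO, adjusted p = 2.3e-08, and 1.43 ± 0.08 in Sorafenib) and fell after siY/T in DMSO (-0.70 ± 0.08, adjusted p = 9.14e-06). *PIM1*, a STAT3 target, fell after both siRNAs in DMSO (-0.70 ± 0.05 after siY/T and -0.76 ± 0.05 after siATF4). *STAT3* itself rose after siY/T, by 0.62 ± 0.04 in DMSO and 0.65 ± 0.04 in Sorafenib. *JAK1* fell after siY/T in Sorafenib (-0.63 ± 0.04). Its level was lower after both siRNAs in DMSO too, at 988 and 960 CPM with siCtrl, 646 and 647 CPM with siY/T, and 617 and 622 CPM with siATF4. Of 11 tested genes of IL6 and LIF signalling, 3 were called lower and 1 higher after siY/T in DMSO, against 3.61% and 11% of all tested genes.

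Across the 12 libraries, which share their 6 groups, the Pearson correlations of log2(CPM + 0.5) among *CXCL1*, *CXCL2*, *CXCL3*, *CXCL5* and *IL6* were between 0.826 and 0.970. *LIF* correlated with them at 0.719 to 0.876 and *CCL2* with the other members at 0.150 to 0.490. Among the 11149 genes that averaged 5 CPM or more, the patterns most like that of *CXCL5* were those of *FGF2* (0.987), *GPRC5A* (0.981) and *P3H2* (0.972). Most like *CXCL2* were *EIF4A1* (0.986), *SENP3-EIF4A1* (0.985), a readthrough gene that overlaps it, and *ZMIZ2* (0.983). For *IL6* they were *SETD7* (0.985), *SLC25A5* (0.969) and *RUSC2* (0.969), for *LIF* they were *STC1* (0.994), *SERTAD1* (0.990) and *RAB35* (0.989), and for *CCL2* they were *RARS1* (0.968), *MRPS7* (0.957) and *SHC1* (0.952). These values describe the shared group pattern of 12 libraries and were not tested.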

How the data were processed

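RNA was sequenced from 12 libraries of HLE cells. The authors aligned to hg19 with STAR (unique hits only), used QuasR to count reads in exons of RefSeq mRNAs, and deposited the result as CPM per gene; the strand setting of the counting is not given in the sources used here. Each column adds up to 1000000, and 100% of values were whole multiples of 1 read within 0.001 read, so whole reads were recovered. Names for 26111 of 26258 Entrez identifiers were taken from RefSeq (GRCh38.p14), and positions came from GENCODE on GRCh37. The 13515 genes that reached 1 CPM in 2 or more libraries were fitted as log2(CPM + 0.5) with limma 3.58.1 in R 4.3.3, 1 coefficient per group and a variance trend over all 12 libraries. Calls used the thresholds of the study, an unadjusted P under 0.05 with a log2 change of 0.58 or more; interactions used an adjusted P under 0.05. The precision is set by 2 libraries per group and the reads per gene; intervals cover counting error only. The members and lists were chosen with earlier results of these data known. Named are all members, up to 3 called genes of each list with the largest change (mean CPM of 1 or more, libraries not overlapping), all tested neighbours, and the 3 genes most like each member. List genes with no value by this rule (*PF4*, *PPBP*, *CXCL6*, *TNF*, *CSF2*, *CSF3*, *AREG*, *BCL2A1*, *CCL5* and the receptors at or near 0) and marker genes were named after their values were seen. Alternatives were pseudocounts of 0.1 and 1, no filter and a filter at 5 CPM, TMM and quantile scaling, edgeR 4.0.16 and DESeq2 1.42.0 on recovered reads, a stricter call, only the groups compared, a replicate block and leaving out each library. The steps were tested on simulated reads. Python 3.11.15 and matplotlib 3.10.9 drew the figures.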

Additional observations from a re-analysis of the deposited data

Results flagged for a closer look

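The interaction term of the limma fit, with adjustment over 13515 genes, flagged 5 members with siATF4 and, *CXCL5* aside, 3 with siY/T. Of all tested genes 41.1% were called with siATF4 and 22% with siY/T. For siATF4 the differences (effect in Sorafenib less effect in DMSO, log2) were -1.16 for *CXCL2*, -0.94 for *CXCL1*, -0.82 for *CXCL3* and -0.73 for *LIF*, all rises that were smaller in Sorafenib, and 0.64 for *CCL2*, a fall in DMSO of 0.70 that was at -0.06 in Sorafenib. For siY/T they were 1.03 for *CCL2*, from -0.85 in DMSO to 0.18 in Sorafenib, 0.82 for *CXCL2*, from -1.64 to -0.82, and -0.56 for *LIF*, from 0.16 to -0.40. *CXCL1* and *CXCL3* passed the filter on low values only through siATF4 libraries, so their siATF4 differences are a description and support nothing. The siY/T differences contain the DMSO values that the choice of genes rested on, so they too are a description. The *CXCL2* difference with siY/T was called in limma and not in edgeR or DESeq2. Because *CXCL2* was at 0.300 to 0.449 CPM in the 4 siY/T libraries, the log2(CPM + 0.5) scale compresses its values there. Groups of 2 libraries are too small for a search for outlying samples.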

How the results depend on the processing

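Counts of members called depended most on the filter and on the threshold. With a filter at 5 CPM, fewer members were tested, and the calls were 3 in place of 5 for siY/T in DMSO, 3 in place of 6 for siATF4 in DMSO, 4 in place of 7 for Sorafenib in siATF4 cells and 3 in place of 5 for the siATF4 interaction. When an adjusted P under 0.05 with a log2 change of 1 or more was asked for, they were 3 for siY/T in DMSO, 1 in place of 3 for siY/T in Sorafenib and 0 in place of 3 for siATF4 in Sorafenib. For siY/T in Sorafenib a pseudocount of 0.1 and DESeq2 each gave 5; for siATF4 in Sorafenib quantile normalization gave 6; for the siATF4 interaction DESeq2 gave 3. Leaving out 1 library moved the counts of the siRNA comparisons and interactions in some fits. For siY/T and siATF4 in Sorafenib and for the siATF4 interaction calls were lost in some fits and gained in others. The 3 Sorafenib counts, 4, 1 and 7 in the main fit, did not move. The sign turned for 1 value under other settings, the siY/T interaction of *CXCL1* (0.01), which was -0.16 with a pseudocount of 0.1, -0.52 in edgeR and -0.56 in DESeq2. With 1 library left out it ran from -0.12 to 0.14, that of *IL6* from -0.025 to 0.36, the siATF4 interaction of *CXCL5* from -0.062 to 0.18 and the Sorafenib value of *CXCL3* in siY/T cells from -0.12 to 0.14; none of these was called. Counts that involve siATF4 include *CXCL1* and *CXCL3*, which passed the filter only through siATF4 libraries. The count for Sorafenib in siCtrl cells includes *CXCL5*, whose siCtrl DMSO values entered the choice of genes. The siATF4 interaction of *IL6* passed without siCtrl Srf replicate 1 (-0.66, adjusted p = 0.0226 with limma). Apart from the adjusted p-values and construction named here, the cause was not tested.

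Replicate numbers occur in every group, but no label says what they share, and same-numbered libraries of compared groups deviated with correlations of -0.0796 to 0.193. With the replicate block the counts were 5, 3, 6 and 3 for the 4 siRNA comparisons, 4, 1 and 7 for the Sorafenib comparisons and 5 and 4 for the interactions, and 63 of 63 member values kept their direction and call. Other scalings moved the split of all calls for siY/T in DMSO, where 24.7% were lower in the deposited scaling, 33.6% with TMM and 43% with quantile normalization; the median of all genes moved by less than 0.1. Depth limits *CXCL8*, *IL1A* and *IL1B*, with 46, 0 and 6 reads in all, and *CXCL1* and *CXCL3* in siY/T cells.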
